A study of Mus musculus with 3 samples.

Results

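Single-base substitutions on mouse chromosome 4 that were fixed in 3 haploid embryonic stem cell (ESC) lines were analyzed. A substitution was taken as fixed when each line had at least 10 reads at the position and when at least 0.8 of the reads with the reference or the alternate base carried the alternate base in each line. Olfactory and vomeronasal receptor genes, whose symbols start with Olfr and Vmn, were left out. There were 401 such positions on chromosome 4, among 3765 found with the same rule on all chromosomes. The table had 11544 positions with a single-base substitution, those in the receptor genes included. Of the 1200 positions of chromosome 4 with enough reads, 33.4% were fixed, against 38.8% of 9696 positions on all chromosomes and 39.8% of 8229 positions on the other autosomes. The members were chosen by these depths and read shares, so the shares describe the choice and were not tested. Chromosome 4 ranked 4 among the chromosomes by the number of fixed positions.

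All 3 lines are androgenetic haploid ESCs labelled with the strain C57BL/6 and cultured in 2i/Lif medium. O48, labelled WT and sequenced at passage 40, lacks the *H19* and *IG* DMRs, which are control regions of imprinted genes, and the derived lines share this background. ΔDSM-O48-1 (passage 60) carries mutations of *Dmpk*, *Six5* and *Mbnl1* and descends from O48 through a line mutated in *Dmpk*. ΔDSMD-O48-2 (passage 70) was made from ΔDSM-O48-1 by mutating *Dmwd*. The knockout lines are 1 clone each, and each line has 1 library, so passage, clone and genotype cannot be told apart and no spread between cultures was measured. Intervals given here cover counting error only.

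A haploid cell carries a single copy of each chromosome. A substitution inherited from the gamete, or acquired before a clone was founded, is therefore expected in nearly every read at its position. Androgenetic haploid ESCs are derived from embryos that hold only the genome of a sperm. Stretches of DNA that come from the same ancestor carry their differences from a reference genome together, as a haplotype. In the coding sequence a substitution is synonymous when the amino acid stays the same and nonsynonymous when it changes, while the untranslated regions (UTRs) of an mRNA can carry changes without any effect on the protein sequence.

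The sequences around amino acid changes in proteins of known roles are shown first, together with a listed stop-gain and with the pseudogene that held most listed changes. They were chosen with the values known. Each run of 29 bases is the plus strand of GRCm38.p6 from RefSeq, and the capitals mark the positions that were fixed for another base in all 3 lines. Amino acid changes give the residue of the reference, its number in the listed transcript and the new residue.
*Plin2*, L183M, chr4:86661962-86661990: ctggtctaccagcaGctccgacttggtga
*Mllt3*, M352T, chr4:87840741-87840769: caaacggtggcaacAttgacttcttcttc
*Alg6*, F231S, chr4:99744487-99744515: taggcttgcattgtTcattaggatagcct
*Leprot*, D92G, chr4:101656277-101656305: tcttgctcgtgtggAtgtggtgagttctg
*Insl5*, S56A, chr4:103026513-103026541: aataccttgttgagAgtggaaatgcccct
*Foxe3*, Q253E, chr4:114925243-114925271: ggccaggagaggctGggcgggcagcggcg
*Cmpk1*, R25W and T23R, chr4:114987052-114987080: gGaagagccGcagtGtgcgggtcagcggc
*Stil*, R942H, chr4:115039130-115039158: ggtagttaccaaccGtgaatgcgccaaga
*Heyl*, N190S, chr4:123246204-123246232: cttgccttccctgaAcagtcagctcgcca
*Gm12787*, R133*, chr4:98268155-98268183: tacaatggcttctcGgttcttagaggaca
*Gm12901*, Q35E and 4 other changes, chr4:123258134-123258162: gagacagactgaccCAggTagcCAaggtg
The window of *Cmpk1* held 3 fixed positions and that of *Gm12901* held 5, while each of the other windows held 1. Neighbouring members were often this close. The median distance to the next fixed position was 397 bp, 48 of the 401 lay within 10 bp of another, 192 within 100 bp and 306 within 1000 bp.

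The 401 positions were read almost without reference bases in every line. In O48, depth ran from 10 to 57 reads with a median of 31, and 12530 of 12547 reads (99.9%) had the alternate base. In ΔDSM-O48-1, depth ran from 10 to 53 reads with a median of 31, and 12638 of 12644 reads had it. In ΔDSMD-O48-2, depth ran from 10 to 51 reads, again with a median of 31, and 12110 of 12126 reads had it. The lines were thus nearly equal in depth at these sites. The plot of shares and depth shows both measures. No line had a reference read at 382 of the 401 sites. Of the remaining 19, 14 had reference reads in 1 line, 5 in 2 lines and 0 in all 3. The authors' genotype was homozygous for the alternate base in all 3 lines at 400 sites.

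**Figure D1:**
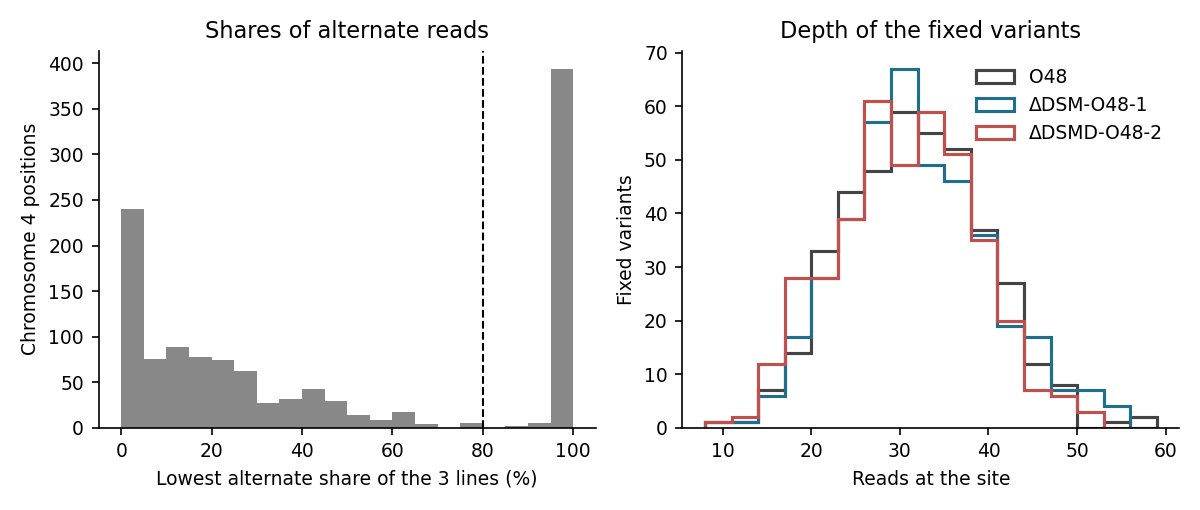
Left, the number of chromosome 4 positions by the lowest share of alternate reads among the 3 lines, with the limit of the rule as a dashed line; right, the number of fixed variants by reads at the site, with a line for each cell line. Few positions lie near the limit, with 26 positions between 0.6 and 0.8 and 382 at a share of 1, and the median depth of the fixed variants was 31 reads in each line.

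Few positions lay near the limit of the rule. The lowest share inside it was that of T86987190C in the 3′ UTR of *Slc24a2*, a potassium-dependent sodium-calcium exchanger, with the alternate base in 15 of 17 reads of O48 (88.2%). ΔDSM-O48-1 had it in 17 of 18 reads and ΔDSMD-O48-2 in all 24, and the reads of the lines are given in this order from here on. Its O48 genotype was the only heterozygous one among the members. In these tokens the base of the reference comes first, then the position on the chromosome and the alternate base, all on the plus strand. T82505184C in the 5′ UTR of the transcription factor gene *Nfib* followed, with 23 of 26 reads (88.5%), 30 of 31 and 20 of 20. G103173212T in the 3′ UTR of *Slc35d1*, a nucleotide sugar transporter, had 91.7% as its lowest share. T98111773G in *Nfia* came to 93.3%, and T101464065C in *Ak4*, which encodes a mitochondrial adenylate kinase, and A103172046G in *Slc35d1* came to 94.1%. Just outside the limit, T86987184C lay 6 bp from the first of these in *Slc24a2* and had 14 of 16, 12 of 16 and 22 of 22 reads, with a lowest share of 75%. The others just outside were C146466194A (T124N, 76.3%) and G146466199A (E126K, 75%) in the gene model *Gm13251*, A147064083G (a stop-loss, 75.7%) in id73926 and T156338484G (F516L, 75%) in id76350. At these 4 sites depth was higher than at any member, from 60 to 177 reads in a line.

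The fixed positions fell into a few dense blocks separated by long stretches without any. When neighbours at most 1 Mb apart were joined, the 401 positions gave 20 blocks. Of these, 13 were single positions, 1 held 2 positions and 6 held 5 or more. The 6 dense blocks held 386 of the 401 positions (96.3%, 95% exact interval 93.9% to 97.9%) in 8.63 Mb, which contain 6.78% of the annotated exon length of the chromosome. Densities per kb of exon count only members that lie in annotated exons of RefSeq, which were 359 in the dense blocks. Per kb of exon there were 0.678 such positions in the dense blocks (exact Poisson interval 0.610 to 0.752) and 0.00206 on the rest of the chromosome (0.00115 to 0.00340). The blocks were drawn around the positions themselves, so this contrast is a description and was not tested. The plot along the chromosome shows the blocks above the positions of the table that were not fixed.

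**Figure D2:**
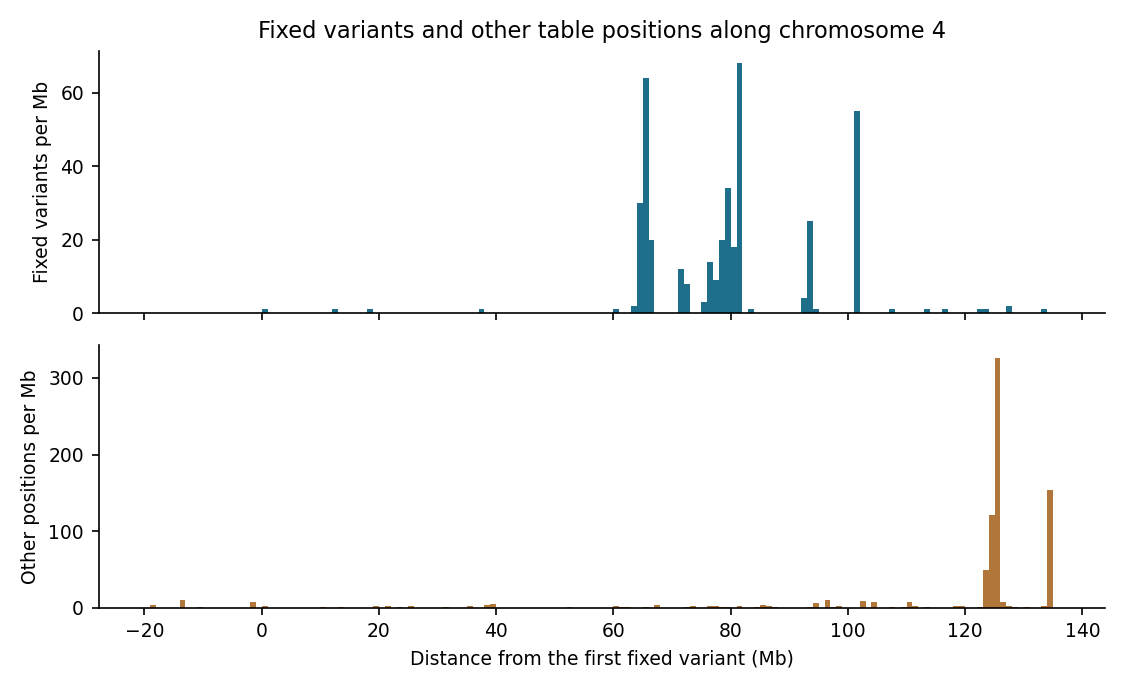
Positions per Mb along chromosome 4 by distance from the first fixed variant in Mb, with the 401 fixed variants above and the other positions of the table below, on separate linear scales. The 6 dense blocks hold 386 of the 401 fixed variants, and the highest bars of the other positions lie beyond all 6 of them.

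The block with most members, 166 of 401 (41.4%, 36.5% to 46.4%), ran from *Nfia* to the gene model id65746 (chr4:97777856-103311732, 5.53 Mb) with 35 listed genes. It held 51 listed nonsynonymous and 40 listed synonymous changes, 48 in 3′ UTRs and 22 in 5′ UTRs, with start-gains counted among the last. A further 4 were listed stop-gains or stop-losses. Of the 51, 13 were listed under id65746, 8 under id65668 and 5 under id65393, models at lncRNA genes of RefSeq that are described below. Of the 177 positions of the block with enough reads, 11 were not fixed. Of 38 protein-coding genes of RefSeq in it, 26 held a member. The longest stretch without one inside the block was 0.991 Mb with 65.9 kb of exon, 6 protein-coding genes without a member and 3 positions of the table with enough reads, just under the distance at which neighbours were joined.

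The block from id64432 to *Ptplad2* (chr4:85782203-88434996, 2.65 Mb) held 116 members (28.9%), and 1 of its 117 positions with enough reads was not fixed. All 12 of its protein-coding genes held a member. UTRs carried most of the members, with 72 positions in 3′ UTRs, beside 15 listed nonsynonymous and 26 listed synonymous changes. *Slc24a2* alone held 48 of the 72, and its 49 members came to 4.42 per kb of its exons. With this gene included, the block from id64432 had 1.06 members in exons per kb of exon (0.873 to 1.28). That density stood above the 0.440 per kb (0.375 to 0.513) of the *Nfia* block. The longest stretch without a member inside the block from id64432, 0.780 Mb between *Slc24a2* and *Mllt3*, has only 9.38 kb of exon and no protein-coding gene without a member in the block.

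The block from *Hpcal4* to *Bmp8a* (chr4:123189036-123342816, 0.154 Mb) held 55 members. All 55 of its positions with enough reads were fixed, and all 6 of its protein-coding genes held one. Of the 55, 81.8% were transitions and 19 were listed as nonsynonymous. The block from id67054 to *Stil* (chr4:114854368-115039144, 0.185 Mb) held 29 members, which again were all of its positions with enough reads, in all 4 of its protein-coding genes. Its density was 1.60 per kb of exon (1.07 to 2.30), and that of the *Hpcal4* block was 1.41 (0.991 to 1.94) for the 37 members in annotated exons. Neither of these short blocks had a position of the table with enough reads that was not fixed. Bases without a called variant are not in the table.

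A single gene formed the *Tusc1* block (chr4:93334251-93335139), in which 12 members lay within 889 bp. *Tusc1* is named as a tumor suppressor candidate and has its coding sequence in 1 exon. The changes were H196Q and H138N, 3 synonymous changes and 7 changes in the 3′ UTR, and all 12 positions with enough reads were fixed. The lowest depth in the gene was 15, 10 and 13 reads. The last dense block, from *5830433M19Rik* to *Gm12657* (chr4:94500758-94600312), held 8 members, among them V221G in *5830433M19Rik* and 3 changes in the 3′ UTR of *Plaa*, which encodes a ubiquitin-binding protein. RefSeq names *5830433M19Rik* *Caap1*, a regulator of apoptosis.

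Between the dense blocks lay stretches with genes and few or no fixed positions. From *Ptplad2* to *Tusc1*, 4.90 Mb with 42 protein-coding genes and 104 kb of exon held 0 members, which allows up to 0.0355 per kb (exact Poisson interval). From *Gm12657* to *Nfia*, 3.18 Mb with 19 protein-coding genes held 0 members, which allows up to 0.0263 per kb of exon. The 11.5 Mb from id65746 to id67054, with 83 protein-coding genes, held 1 member, and the 8.15 Mb from *Stil* to *Hpcal4*, with 146, held 1 as well. The first 85.8 Mb of the chromosome, with 423 protein-coding genes, held 5 members. The last 33.2 Mb, with 533, held 8 members among 707 positions of the table with enough reads, so that most positions of chromosome 4 that were not fixed lay there. The table lists only positions at which a variant was called, so a stretch without any entry says nothing on its depth.

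The 15 members outside the dense blocks lay in 15 genes. A pair at the distal end, L1087P in *Casz1* (T148944359C) and a 5′ UTR change in *Ctnnbip1*, which encodes an inhibitor of β-catenin, lay 0.574 Mb apart. *Casz1* encodes a zinc finger transcription factor, and its alternate base was in 20 of 20, 32 of 32 and 34 of 34 reads. The single positions with an amino acid change were R476G in *Sfrs18*, S117R in the sorting nexin gene *Snx30*, S361I in *Vwa5b1*, A312T in *Gm13106*, which is a pseudogene in RefSeq, and R362Q in *2010015L04Rik*. *Hdac1*, which encodes a histone deacetylase, held a synonymous change at Y201 (38 of 38, 39 of 39 and 38 of 38 reads). The others lay in UTRs of *Zfp292*, *B4galt1*, *Nfib*, *Gpbp1l1*, *Il22ra1*, *Tnfrsf1b* and *Prkaa2*. The last of these encodes a catalytic subunit of the kinase AMPK. Among these 15 members, reference reads were found only at *Nfib* and, with 1 read in ΔDSMD-O48-2, at *Il22ra1*. Like all members they were chosen by their read shares.

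By the effect of highest impact over the listed transcripts, 3′ UTR changes were the largest class of the 401 with 164 (40.9%), against 33.8% of the 3274 fixed positions on the other autosomes. *Slc24a2* alone held 48 of the 164, and without its members the share was 33.0% (116 members, 28.1% to 38.1%). No gene was removed from the other autosomes, so that share is not like for like with theirs, and the difference was not tested. There were 106 nonsynonymous changes (26.4%, against 28.2%), 90 synonymous changes (22.4%, against 29.2%) and 27 changes in 5′ UTRs (6.73%, against 5.47%). Smaller classes were 6 start-gains, which create a start codon in a 5′ UTR, 3 stop-gains, 3 stop-losses and 2 changes between stop codons. No fixed splice-site change or start-loss was listed. Of the changes listed as nonsynonymous or synonymous, 106 of 196 on chromosome 4 were nonsynonymous (54.1%, 46.8% to 61.2%), against 922 of 1879 on the other autosomes (49.1%, 46.8% to 51.4%). The difference of 5.01 percentage points did not pass the test (two-sided Fisher's exact test, p = 0.202, adjusted p = 0.404 over 2 comparisons). With effects recomputed from the coding exons of RefSeq on both sides, which was added after the data were seen, 50 of 126 (39.7%, 31.1% to 48.8%) and 481 of 1265 (38%, 35.3% to 40.8%) were nonsynonymous. That difference of 1.66 percentage points did not pass the test either (two-sided Fisher's exact test, p = 0.773, adjusted p = 0.773). Neighbouring positions can be inherited together and are not independent, which the test does not take into account. The plot of listed classes shows the shares side by side.

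**Figure D3:**
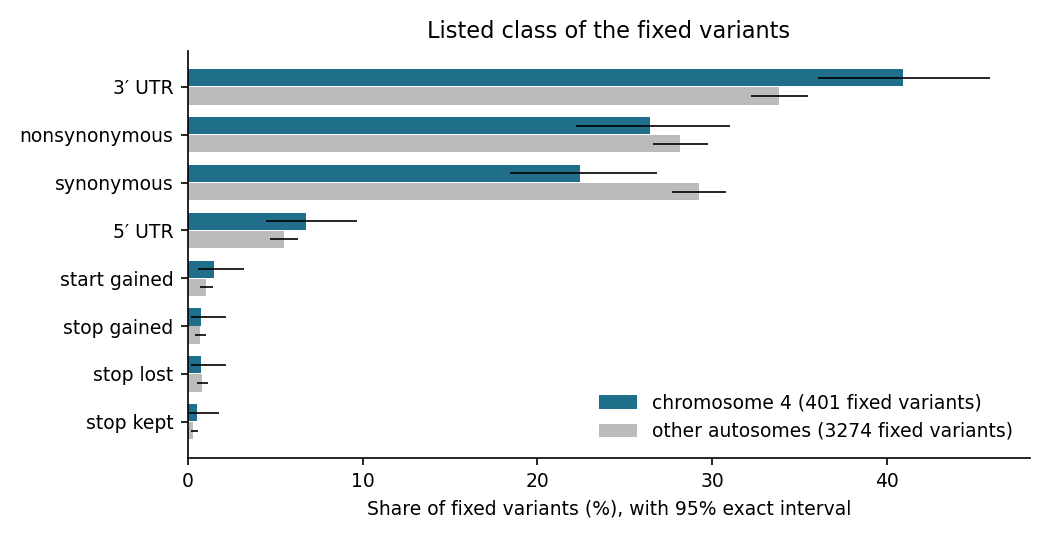
Share of fixed variants in each listed class in percent, on chromosome 4 (401 variants) and on the other autosomes (3274 variants), with 95% exact binomial intervals as lines. Changes in 3′ UTRs made up 40.9% on chromosome 4 (33.0% without *Slc24a2*) and 33.8% elsewhere, where no gene was removed. Synonymous changes made up 22.4% and 29.2%.

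Transitions, which exchange a purine for a purine or a pyrimidine for a pyrimidine, made up 290 of the 401 substitutions (72.3%, 67.7% to 76.6%). On the other autosomes they made up 2322 of 3274 (70.9%, 69.3% to 72.5%), and the difference of 1.40 percentage points did not pass the test (two-sided Fisher's exact test, p = 0.6, adjusted p = 0.6). On the plus strand there were 76 changes of G to A, 73 of A to G, 72 of T to C and 69 of C to T, so that each transition was about as frequent as its complement. The rarest change was C to G with 9. A CpG dinucleotide, in which the C is often methylated, contained 67 of the 401 reference bases (16.7%, 13.2% to 20.7%). Of these 67, 57 were transitions (85.1%), against 233 of the 334 other positions (69.8%). On the other autosomes 400 of 559 CpG positions (71.6%) and 70.8% of the other positions were transitions. The shares at CpG positions were not tested.

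The 401 members were listed under 82 genes, of which 23 held 1 member, 11 held 2 and 48 held 3 or more. The 5 genes with most of them held 110. The plot of genes with most fixed variants gives the leading 25 by class. *Slc24a2* came first with 49 members between 86983162 and 86991362, 48 of them in its 3′ UTR and 1 synonymous. The 3′ UTR carried all 12 members of *Acer2*, an alkaline ceramidase, and all 7 of *Slc35d1*. *Heyl*, a Notch target gene that encodes a transcriptional repressor, held 13 changes in its 3′ UTR, 1 in its 5′ UTR and N190S. At N190S, 19 of 19, 28 of 28 and 16 of 16 reads had the alternate base. In *Hpcal4*, a neuronal calcium sensor gene, 8 members lay in the 3′ UTR and 3 were synonymous, and in *Mier1*, a gene for a corepressor, 8 lay in the 3′ UTR and 1 was synonymous. In all, 21 genes had members in UTRs only, and 16 had synonymous but no nonsynonymous members.

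**Figure D4:**
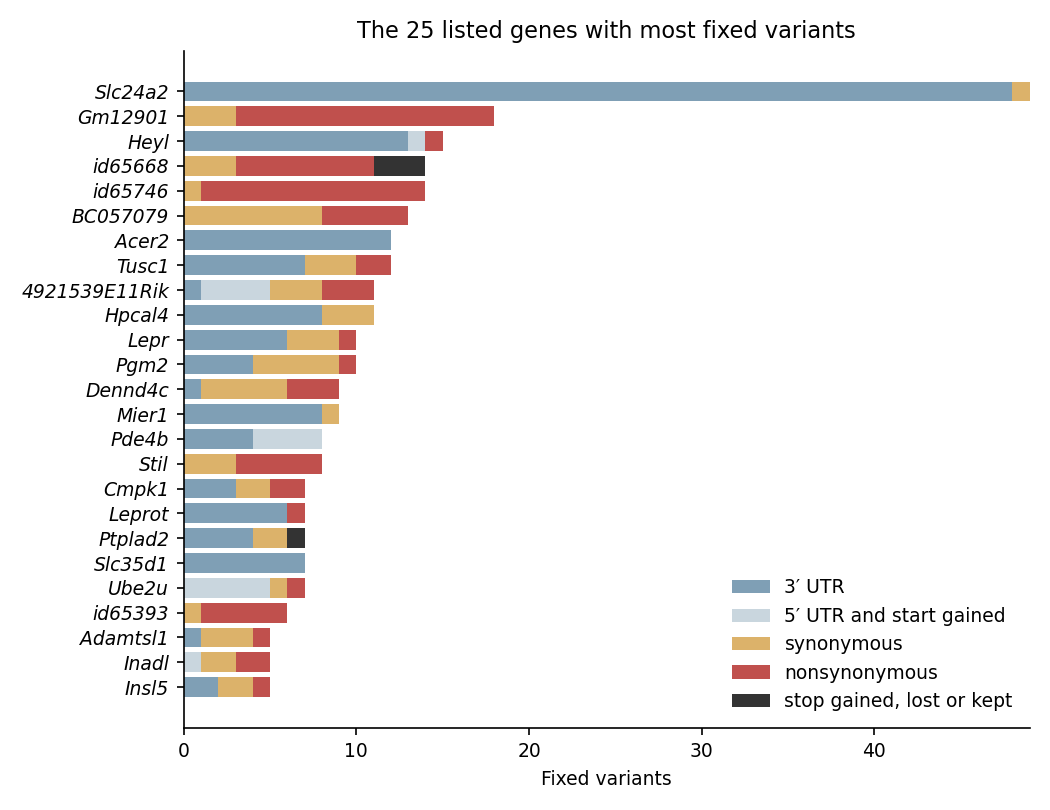
Number of fixed variants in the 25 listed genes with most of them, by class. *Slc24a2* leads with 49, of which 48 are in its 3′ UTR, while *Gm12901* and id65746 are made up mostly of listed nonsynonymous changes (15 of 18 and 13 of 14).

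Genes with both nonsynonymous and synonymous members numbered 26. *BC057079*, which RefSeq names *Focad* for focadhesin, a protein of focal adhesions, carried T431A, V464G, F756Y, V1474M and N1660I beside 8 synonymous changes. *Stil*, whose product is needed for centriole duplication, carried L374V, M686T, V740M, K748R and R942H beside 3 synonymous changes. The alternate base of R942H (G115039144A, exon 16) was in 25 of 25, 35 of 35 and 23 of 23 reads. *Dennd4c*, which encodes an exchange factor for Rab proteins, carried A1149V, N1177H and V1613I beside 5 synonymous changes. By contrast *Pgm2*, which RefSeq names *Pgm1* and which encodes a phosphoglucomutase, had V525I as its only nonsynonymous change beside 5 synonymous ones and 4 in the 3′ UTR. At V525I 34 of 35 reads of ΔDSM-O48-1 and all 22 and 24 reads of the other lines had the alternate base.

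The genes for the leptin receptor and its overlapping transcript lie next to each other in the *Nfia* block. *Leprot*, which shares its first exons with *Lepr* and encodes a small membrane protein of vesicle traffic, carried D92G (A101656291G, exon 3) with 37 of 37, 38 of 38 and 34 of 34 reads, and 6 changes in its 3′ UTR. *Lepr*, the receptor of the satiety hormone leptin, held 10 members, which were 1 nonsynonymous change, 3 synonymous changes and 6 changes in the 3′ UTR of another of its listed transcripts. The members of both genes spanned 101656291 to 101813649, and reference reads were found at only 2 of them, in the 3′ UTR of *Lepr*. In the same block, *Alg6*, a glucosyltransferase of N-glycan assembly, carried F231S (T99744501C) with 30 of 30, 47 of 47 and 35 of 35 reads beside 3 synonymous changes. *Insl5*, a gut hormone of the relaxin family, carried S56A with 35 of 35, 27 of 27 and 35 of 35 reads.

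Other genes of the *Nfia* block with an amino acid change covered several functions. *Inadl*, which RefSeq names *Patj* and which encodes a scaffold of the Crumbs polarity complex, carried A961P and A1509T. *Itgb3bp*, a gene for a centromere protein, carried R82S, the ubiquitin-conjugating enzyme gene *Ube2u* carried N100S and the RNA-binding protein gene *Raver2* carried A201V. *Sgip1*, a gene for an endocytic adaptor, carried T355P, *Tctex1d1*, named after a dynein light chain, carried E50D, and *4921539E11Rik* carried R263H, R252H and V212A. The gene models id65565 and *Gm12794*, which RefSeq names *Pramel18* and *Pramel19*, carried H109Q and Q171H, and D15A, I129R and R163T. *Gm12789* carried T68A. *Nfia*, a transcription factor gene, held 3 changes in its 3′ UTR and 1 in its 5′ UTR, and *Pde4b*, which encodes a phosphodiesterase of cAMP, held 4 of each. *Cachd1* held 3 synonymous changes.

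In the block from id64432 to *Ptplad2*, *Plin2*, which encodes a coat protein of lipid droplets, carried L183M (G86661976T, exon 5) with 29 of 29, 40 of 40 and 40 of 40 reads. *Mllt3*, whose product reads acylated histones and which is a fusion partner of MLL in leukemia, carried M352T (A87840755G, exon 5) with 41 of 41, 33 of 33 and 26 of 26 reads. *Haus6*, a subunit of the augmin complex of the spindle, carried P850S, and *Adamtsl1*, a secreted protein of the extracellular matrix, carried I246T. *Rps6*, a protein of the small ribosomal subunit, held 3 changes in its 3′ UTR and the synonymous change R159, and *Rraga*, a GTPase that signals to mTOR, held the synonymous change Y106. The only member in the coding sequence of *Fam154a* was synonymous. A change at the stop codon of *Ptplad2* (C88414265T) kept a stop codon.

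Next to *Stil*, *Cmpk1*, a nucleotide kinase for UMP and CMP, carried T23R and R25W in exon 1. These and the synonymous change F27 lay within 14 bases and are marked in the sequence above. T23R was read in 20 of 20, 29 of 29 and 18 of 18 reads, and R25W in 18 of 18, 29 of 29 and 19 of 19. *Foxe3*, a forkhead transcription factor of the lens, carried Q253E with 21 of 21, 19 of 19 and 19 of 19 reads and 2 synonymous changes. *Foxd2*, another forkhead gene, held 2 changes in its 3′ UTR and a synonymous change at H463, and *Foxd3*, a forkhead gene active in pluripotent cells, held 1 change in its 3′ UTR only.

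The listed nonsynonymous changes divided by the kind of gene model. The amino acid effect of each was recomputed from the coding exons of RefSeq, and this comparison was added after the data were seen. Of the 106, 50 lay in a RefSeq coding exon (47.2%, 37.4% to 57.1%), in 32 genes, and all 50 gave the listed residues at the listed number. On the other autosomes, 474 of 922 listed nonsynonymous changes were nonsynonymous in RefSeq as well (51.4%, 48.1% to 54.7%). The difference between these shares was not tested. The other 56 of chromosome 4 lay in a lncRNA (31), a pseudogene (21), an intron of a coding gene (3) or an untranslated exon (1). Of the 62 changes listed under models with an id number or a Gm symbol, 6 lay in a coding exon (9.68%, 3.63% to 19.9%), namely those of *Pramel18*, *Pramel19* and *Gm12789*. Of the 44 listed under other genes, all 44 did. Of the 90 synonymous changes, 74 lay in a coding exon. The plot by place in RefSeq shows the split for each class.

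**Figure D5:**
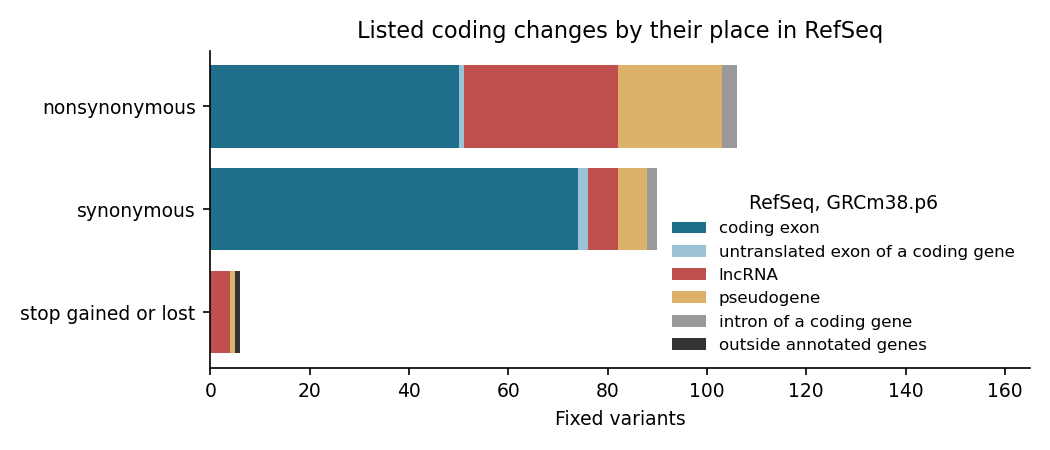
Number of fixed variants listed as nonsynonymous, synonymous or stop gained or lost, colored by where they lie in RefSeq. A coding exon holds 50 of 106 nonsynonymous and 74 of 90 synonymous changes, and none of the 6 stop-gains and stop-losses.

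The gene models that lead the list of nonsynonymous changes belong to the other 56. *Gm12901*, a pseudogene in RefSeq, held 15 of them with 3 synonymous changes between 123258112 and 123258881. Its depth was at least 20, 18 and 17 reads. Q35E and Q35R in it lie in the same codon, the only codon with 2 members, and together give Q35G, which is not listed. The model id65746, at the lncRNA gene *4930456L15Rik* and the RefSeq gene *Gm36523*, held 13. Under id65668, at the lncRNA gene *BB031773*, 8 were listed, with S827P among them in an untranslated exon of *Tctex1d1*. Under id65393, in the lncRNA gene *0610043K17Rik*, 5 were listed. Smaller numbers were listed under id64552 (I859F, V659M and V356A, in an intron of *Dennd4c*), id68825 (A124G, A38T and E31K, in the pseudogene *Gm12900*), *Gm12700* (I52T and P149T, a pseudogene), *Gm13106* (A312T, described above), id67054 (V467I and F639L, in the lncRNA gene *Gm12830*), id67059 (M46L and N282D, in the lncRNA gene *Foxd2os*), id65032 (T267I, in the lncRNA gene *Gm19417*) and id65650 (V41E, in the lncRNA gene *Gm12709*).

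None of the 6 fixed stop-gains and stop-losses lay in a RefSeq coding exon. The stop-gain R133* in *Gm12787* (G98268169A) had 24 of 24, 31 of 31 and 33 of 33 reads and lies in a pseudogene. The stop-gain Q31* in id65038 (C98320204T) had 32 of 32, 28 of 28 and 27 of 27 reads and lies outside annotated genes. The model id65668 held both a stop-gain (Y607*, G103005940C) and a stop-loss (A103006806C), and the stop-losses of id67054 (T114855905A) and id67059 (T114913396C) lie in lncRNA genes as well. Start-gains were listed in *Fam154a* (G86558091A), *Ube2u* (C100478893T and A100478973T), *Tctex1d1* (C102992507T), *4921539E11Rik* (G103290557A) and *Bmp8a* (G123342816A), the gene of a BMP ligand. RefSeq placed 5 of these 6 in an untranslated exon, and that of *Tctex1d1* in a coding exon as a synonymous change. All reads of all 3 lines had the alternate base at these start-gains, with a lowest depth of 17 reads.

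Most of the families with many copies on chromosome 4 that were counted held no member. Interferon (Ifn, 20 genes of RefSeq on the chromosome), major urinary protein (Mup, 44), Skint (11), Cyp4 (15) and Tas1r (3) genes held 0 members, and none of these genes lies in a dense block. The table had 6 positions with enough reads in Mup genes, 1 in a Cyp4 gene and 0 in the other families, so few could have been fixed. Zinc finger genes with a Zfp symbol held 1 member, in *Zfp292*, of 40 such positions. Of the Pramel and Oog genes, 28 lie on the chromosome and 3 in a dense block, and *Pramel18* and *Pramel19* held 7 members, all of them listed under other symbols. Rik gene models held 14 members in 3 genes, of 49 positions with enough reads, and Gm gene models held 33 in 8, of 314, where 33.4% of all such positions of chromosome 4 were fixed. The 12 id models with a member held 58. For the Pramel genes by RefSeq name and for the id models no number of positions with enough reads is given. Their members can therefore not be set beside the 33.4%.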

How the data were processed

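Whole-genome sequencing data of 3 lines (1 library each) were used. The submitters' processing notes name CASAVA 1.8.2, BWA 0.7.12, SAMtools, Picard, GATK and mm10, and the annotation tool is not given in the sources used here. The deposited table of exonic variants gives read counts per site and line, not normalized. The deposited quality scores and the authors' allele fraction over genotypes were not used in the results given here. The 14685 entries covered 11635 positions, of which 11544 had a single-base substitution. For each position with such a substitution, the effect of highest impact over transcripts was kept.

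The reference base matched GRCm38.p6 at 100% of the members. Exon lengths, gene types and effects were taken from its RefSeq annotation, and older gene symbols were matched to RefSeq by overlap. Shares have exact Clopper-Pearson and densities exact Poisson intervals at the 95% level. Fixed variants of chromosome 4 and of the other autosomes were set against each other by Fisher's exact test (two-sided, Benjamini-Hochberg adjustment). Genes were named when they held a fixed stop, start or nonsynonymous change or at least 3 members, bounded a block, or lay next to the limit of the rule, and other genes were named with their values in view. The members and lists were chosen with earlier results of these data known. Alternatives were a depth of 20 reads or no minimum, shares of 0.9 or 1, genotypes in place of shares, receptor genes kept, block gaps of 0.5 and 2 Mb, the first listed transcript and the RefSeq annotation. Some items are not reported here. Steps were tested on simulated data. Python 3.11.15, pandas 2.3.3, scipy 1.17.1, pysam 0.24.0 and samtools 1.23.1 were used.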

Additional observations from a re-analysis of the deposited data

Results flagged for a closer look

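At 2 positions of chromosome 4 outside the fixed set, a base that O48 lacked was present in every read of a knockout line. The synonymous change C100333648A (I67) in *Ror1*, a Wnt receptor gene, lies inside the *Nfia* block. O48 had it in 0 of 29 reads, while ΔDSM-O48-1 had it in 34 of 34 and ΔDSMD-O48-2 in 27 of 27. C129707775T in *Khdrbs1*, a gene for an RNA-binding protein, lies outside the dense blocks. O48 had it in 0 of 16 reads, ΔDSM-O48-1 in 0 of 36 and ΔDSMD-O48-2 in 31 of 31. The rule for fixed variants leaves such positions out, and the difference between lines was not tested.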

How the results depend on the processing

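Of 44 values under other settings, 43 kept their direction and their side of the test's threshold or, as counts and shares, moved little. The number of fixed variants ran from 340 (depth of 20 reads) to 402 (no minimum). A higher limit for depth or share can only remove members from the 401. The number of blocks ran from 16 (gap of 2 Mb) to 23 (0.5 Mb), and the share of the leading block from 37.2% to 44.4%. Dense blocks, with 5 or more members, numbered 8 with a gap of 0.5 Mb, 5 with a gap of 2 Mb and 5 with a depth of 20 reads, against 6 in the main setting. The differences from the other autosomes ran from 1.08 to 1.60 percentage points for transitions (adjusted p 0.523 to 0.716, Fisher's exact test) and from 4.47 to 7.57 for nonsynonymous changes (adjusted p 0.0954 to 0.522). The exception, chosen after seeing the data, was the RefSeq annotation, under which 50 of the 106 nonsynonymous changes remained. With it the difference from the other autosomes was 1.66 points (adjusted p = 0.773, Fisher's exact test). No paired analysis was possible because each line has 1 library and the labels give no replicate numbers, and for the same reason no library could be left out as a replicate. With a median depth of 31 reads in each line, and as few as 10 at some sites, rare minority bases in the culture can go unseen. The table holds only exonic positions at which a variant was called.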
